A study of Homo sapiens with 32 samples.

Results

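Among the chromatin loops that appeared in human embryonic kidney cells after 1 h in 200 mM sorbitol, 731 were listed in wild-type cells and in cells carrying eGFP-YAP alike. Hi-C counts how often pairs of genomic positions are ligated together, and a loop is a pair of 5 kb bins, its anchors, that stands out as a bright spot in the contact map. The 731 loops were chosen from 4 loop lists that hold 45629 loops in all. A loop qualified when it was in the wild-type sorbitol list, had no wild-type control loop with both anchors within 10 kb, and matched within 10 kb an eGFP-YAP sorbitol loop that itself had no eGFP-YAP control loop within 10 kb. They were 731 of the 5906 loops of the wild-type sorbitol list, and each matched a different loop among the 5577 of the eGFP-YAP sorbitol list. Loops that met these conditions are called loops gained in both lines below.

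The study profiled HEK293 cells by in situ Hi-C, with 3 wild-type replicates without sorbitol and 3 with it, and 4 eGFP-YAP replicates of each kind. The eGFP-YAP cells express the transcriptional coactivator YAP fused to a green fluorescent protein, and the series' design text gives 1 h of serum starvation ahead of sorbitol for this line. The labels call the cells HEK293, whereas the growth protocol speaks of HEK293T, and the list names give each line another source, so line and source cannot be told apart. Each condition has 1 list pooled over its replicates, and which of them entered it is not stated, so no spread between cultures and no test between conditions can be given.

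In most mammalian cells, loops form when the cohesin ring reels in chromatin until it meets the DNA-binding protein CTCF on motifs that point towards each other, and other contacts join promoters with promoters or with enhancers. Sorbitol draws water out of cells, which shrink, and hyperosmotic stress activates the p38 stress kinases and the transcription factor NFAT5. YAP acts at promoters and enhancers through the TEAD factors. The promoter that drives eGFP-YAP and whether the line is 1 clone are not given in the sources used here.

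The promoters below are shown because protein-coding gene starts lay at many anchors of these loops. They are the promoters of 4 gene pairs whose starts lay at opposite anchors of 1 loop, given as the 250 bases before the RefSeq gene start on the gene's own strand (GRCh38.p14). The pairs are GTPBP6 with SLC25A6, DESI2 with HNRNPU, STAG1 with NCK1, and the histone genes H2BC11 with H2BC13, the last pair in wild-type bins only. Capitals mark, on either strand, GGGCGG (the motif of SP factors), CCAAT (the CCAAT box) and TATAAA (the TATA motif).
GTPBP6 promoter, chrX:318797-319046, minus strand: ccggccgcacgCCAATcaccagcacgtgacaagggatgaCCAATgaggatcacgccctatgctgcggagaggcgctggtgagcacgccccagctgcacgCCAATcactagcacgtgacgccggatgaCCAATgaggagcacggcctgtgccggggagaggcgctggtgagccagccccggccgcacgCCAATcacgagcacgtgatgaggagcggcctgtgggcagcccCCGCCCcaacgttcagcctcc
SLC25A6 promoter, chrX:1392114-1392363, minus strand: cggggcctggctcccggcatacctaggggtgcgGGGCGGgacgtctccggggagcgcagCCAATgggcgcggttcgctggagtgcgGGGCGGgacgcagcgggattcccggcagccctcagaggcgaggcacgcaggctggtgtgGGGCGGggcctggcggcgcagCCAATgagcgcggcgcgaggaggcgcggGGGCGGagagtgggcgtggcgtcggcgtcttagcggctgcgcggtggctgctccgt
DESI2 promoter, chr1:244652876-244653125, plus strand: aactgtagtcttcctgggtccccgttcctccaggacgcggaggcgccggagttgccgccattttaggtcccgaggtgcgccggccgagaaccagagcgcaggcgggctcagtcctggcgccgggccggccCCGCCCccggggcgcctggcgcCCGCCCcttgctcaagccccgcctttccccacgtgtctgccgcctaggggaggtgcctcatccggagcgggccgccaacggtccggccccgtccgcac
HNRNPU promoter, chr1:244864544-244864793, minus strand: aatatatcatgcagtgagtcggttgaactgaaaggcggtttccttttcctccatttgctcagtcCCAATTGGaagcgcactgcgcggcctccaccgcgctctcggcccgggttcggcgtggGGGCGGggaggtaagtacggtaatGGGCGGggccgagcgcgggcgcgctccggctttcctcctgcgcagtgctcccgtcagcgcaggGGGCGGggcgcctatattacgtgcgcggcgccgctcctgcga
STAG1 promoter, chr3:136752379-136752628, minus strand: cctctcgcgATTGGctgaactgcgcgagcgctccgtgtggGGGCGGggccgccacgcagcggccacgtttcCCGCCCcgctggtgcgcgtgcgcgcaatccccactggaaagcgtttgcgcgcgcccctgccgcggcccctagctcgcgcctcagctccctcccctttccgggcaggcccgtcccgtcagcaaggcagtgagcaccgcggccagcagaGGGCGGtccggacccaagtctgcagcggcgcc
NCK1 promoter, chr3:136861958-136862207, plus strand: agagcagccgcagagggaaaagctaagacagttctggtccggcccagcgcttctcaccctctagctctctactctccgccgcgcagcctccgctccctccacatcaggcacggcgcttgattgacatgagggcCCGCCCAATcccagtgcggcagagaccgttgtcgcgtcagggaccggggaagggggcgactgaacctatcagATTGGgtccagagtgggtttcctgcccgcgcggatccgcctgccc
H2BC11 promoter, chr6:27132796-27133045, minus strand: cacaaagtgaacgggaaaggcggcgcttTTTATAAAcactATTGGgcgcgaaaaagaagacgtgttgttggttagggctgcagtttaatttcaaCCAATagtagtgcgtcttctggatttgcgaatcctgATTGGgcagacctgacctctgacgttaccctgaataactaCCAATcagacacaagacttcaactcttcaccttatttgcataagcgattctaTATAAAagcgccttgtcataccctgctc
H2BC13 promoter, chr6:27807930-27808179, minus strand: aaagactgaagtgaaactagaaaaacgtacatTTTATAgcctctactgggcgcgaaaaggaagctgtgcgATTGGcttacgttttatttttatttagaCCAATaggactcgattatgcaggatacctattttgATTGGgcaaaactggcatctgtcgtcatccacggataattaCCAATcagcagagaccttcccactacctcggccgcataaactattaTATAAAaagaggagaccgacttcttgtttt

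In the order printed, GGGCGG occurred 1, 4, 2, 3, 3 and 1 times in the first 6 windows and 0 times in both histone windows. TATAAA showed the opposite arrangement, with 3 matches for H2BC11, 2 for H2BC13 and 0 in the other 6. GC content was 67.6%, 76.8%, 74.4%, 66%, 74.4% and 64.8% in the first 6 windows and 44% and 40.4% in the histone windows. Among all promoters at the anchors, matches to GGGCGG were common and matches to TATAAA rare, as the shares given further on show.

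The CTCF matches below are shown because they carry the motif orientations. Each is a stretch of 30 bases read on the strand of the match (hg38), with the motif in capitals and a mismatched base inside it left in lower case. The first pair lies at the anchors of a loop of 205 kb on chromosome 6, outside protein-coding genes on the left and in an intron of STX7, an endosomal syntaxin, on the right. The next pair lies at a loop of 115 kb on chromosome 3 and the last at a loop of 1095 kb on chromosome 4, all outside protein-coding genes.
chromosome 6 left anchor, chr6:132279681-132279710, plus strand: cagatctaCCAGaAGAGGGCACtgtgctcc
chromosome 6 right anchor, chr6:132484335-132484364, minus strand: taaataatCCACTAGATGGCAGcagaccca
chromosome 3 left anchor, chr3:51389518-51389547, plus strand: ggtgtgtaCCACTAGAGGGCAGcaggcact
chromosome 3 right anchor, chr3:51502211-51502240, plus strand: tcagtctgCCACCAGATGGCACtgcttcat
chromosome 4 left anchor, chr4:120156302-120156331, plus strand: atctgtgtCCAGCAGATGGCACtagtgcct
chromosome 4 right anchor, chr4:121252397-121252426, minus strand: gactactgCCACCAGGTGGCAGcaaactga

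The chromosome 6 and chromosome 4 pairs point towards each other, whereas both chromosome 3 matches lie on the plus strand. The right chromosome 4 site also matches on the plus strand with 1 mismatch, so that loop is not among those counted by orientation.

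The values that chose the loops are given as a description only. Of the wild-type sorbitol loops, 4720 (79.9%) had no wild-type control loop within 10 kb, and of the eGFP-YAP sorbitol loops 3816 (68.4%) had no eGFP-YAP control loop within 10 kb. The 731 loops were thus 12.4% of the wild-type and 13.1% of the eGFP-YAP sorbitol list, and 15.5% and 19.2% of the gained loops of each. The other gained loops numbered 3989 in wild type only and 3085 in eGFP-YAP only. The control lists were longer than the sorbitol lists, with 15180 loops in wild type and 18966 in eGFP-YAP. The lists also held 382 loops found in all 4 and 4692 control-only loops of both lines.

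The offsets between the lines are bounded by the limit of 10 kb that chose the loops. The larger of the anchor offsets between the lines was 0 kb in 145 loops (19.8%), 5 kb in 395 (54.0%) and 10 kb in 191 (26.1%). At the edge of the rule, the 191 loops at 10 kb had a median wild-type score percentile of 55.9 and a median span of 180 kb, and the 137 wild-type-only loops whose eGFP-YAP partner lay at 15 kb had 49.7 and 190 kb. Similarly, 29 of the 731 had their nearest wild-type control loop at 15 kb, with a median score of 2.93, and 35 loops were left out because it lay at exactly 10 kb, with a median score of 3.09. The nearest own-line control loop lay at a median distance of 80 kb for the wild-type list and of 60 kb for the eGFP-YAP list, and 143 loops had none within 100 kb in either line.

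Peak scores, the caller's own measure of how a loop stands out, ran from 1.79 to 8.56 in the wild-type list (median 2.90) and from 1.87 to 12.2 in the eGFP-YAP list (median 3.00). As percentiles within each sorbitol list, the medians were 62.3 (95% interval 58.9 to 64.7) and 54.7 (51.0 to 58.5), and these order-statistic intervals cover counting over loops only. In 49 loops the score reached the 90th percentile in both lists, whereas in 198 it was at or below the median in both. Across the 731 loops the scores of the lines had a Spearman rho of 0.612, over loops that share their list and its depth.

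**Figure D1:**
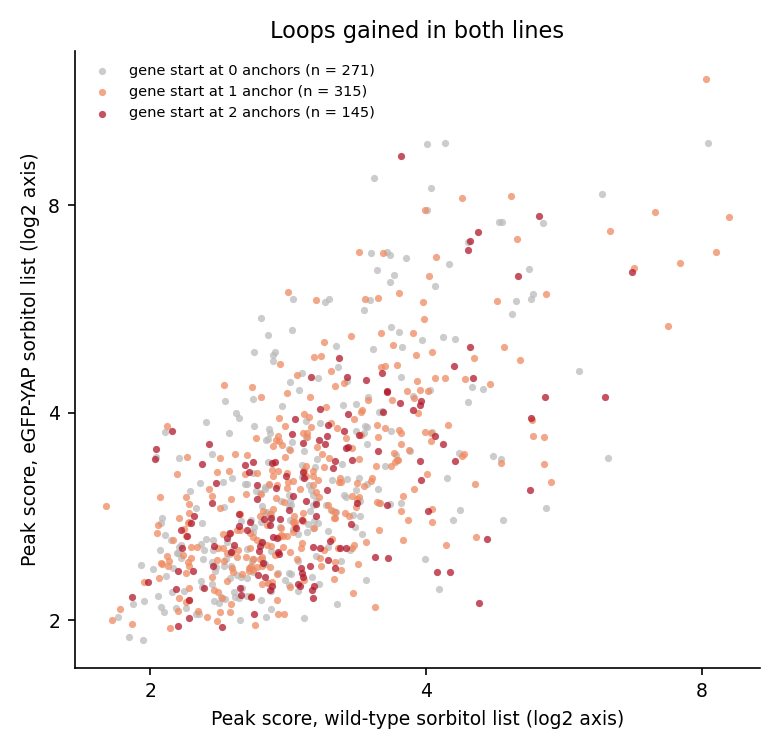
Peak score of each loop gained in both lines in the wild-type sorbitol list (horizontal, log2 axis) against the eGFP-YAP sorbitol list (vertical, log2 axis), coloured by how many anchors hold a protein-coding gene start. Each point is 1 of 731 loops, and points of all 3 colours lie across the range of scores.

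The loops were shorter than other gained loops. Their median span was 160 kb (150 to 175), between 35 and 1435 kb, against 225 kb (220 to 235) in loops gained in wild type only. Among the gained wild-type loops, the share also gained in eGFP-YAP was 24.0% under 100 kb, 17.6% from 100 to under 200 kb and 12.8% from 200 to under 500 kb. In the top 10% of wild-type scores this share was 24.6%, and in the bottom 10% it was 9.27%.

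With 1 annotated start per gene (GENCODE release 44), a protein-coding gene started in 605 of the 1462 anchors, 41.4% (Wilson 95% interval 38.9 to 43.9, counting error over anchors only). The share was 20.3% (19.4 to 21.2) in loops gained in wild type only, 27.3% in loops gained in eGFP-YAP only, 12.0% in loops of all 4 lists and 6.36% in control-only loops. Moving the same anchors by 100 kb left 8.48% (7.16 to 10.0), and 3.07% of all 5 kb bins of the genome hold such a start. With the bins of the eGFP-YAP list the loops had 48.4% (45.8 to 50.9). On each of the 23 chromosomes the share was higher in loops gained in both lines than in those gained in wild type only.

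**Figure D2:**
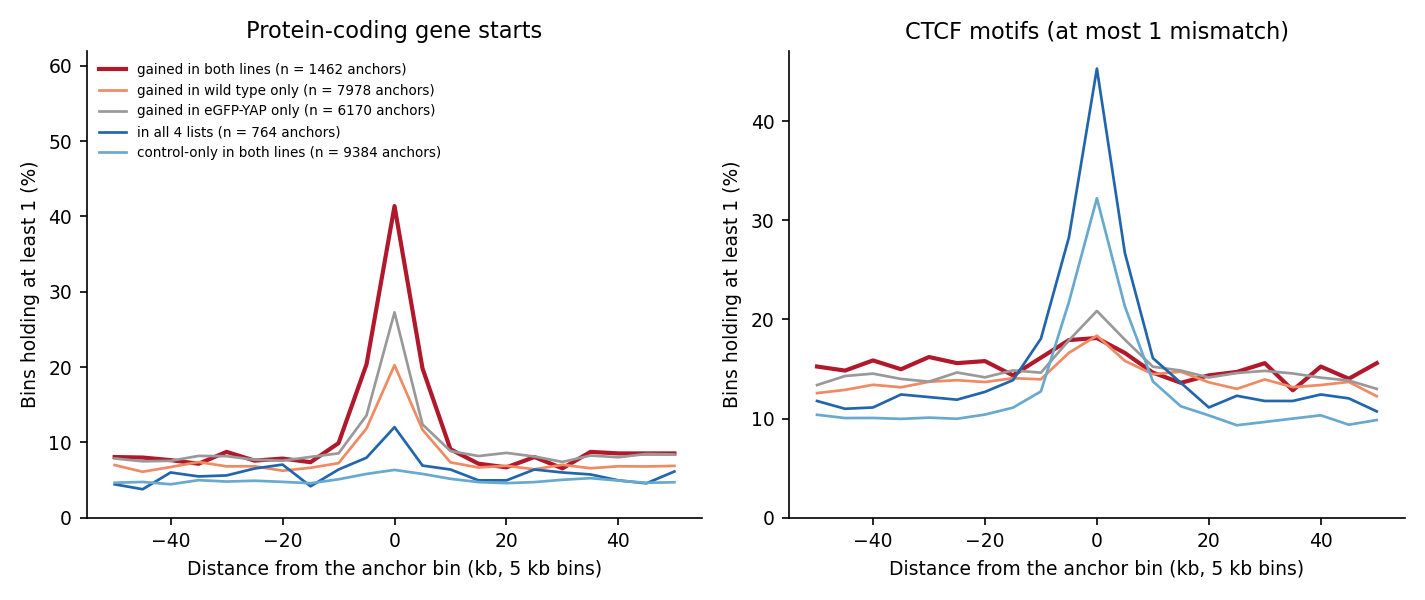
Share of 5 kb bins that hold a protein-coding gene start (left) or a CTCF motif (right), by distance in kb from the anchor bin, for 5 classes of loops. The line for loops gained in both lines has the highest peak at the anchor on the left, 41.4%, and only a low rise on the right, where loops of all 4 lists peak at 45.3%.

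The starts were concentrated on the anchor itself. In the bins 5 kb to either side the share was 20.4% and 19.8%, and at 10 kb it was 9.92% and 9.10%, close to the level of moved anchors. Of 762 starts counted per anchor, 428 (56.2%) lay in the middle 2.5 kb of the bin, with a median distance of 1080.5 bp from its centre. The bin is 5 kb wide, so within it the starts were only somewhat closer to the centre than if placed evenly. Widened by 5 kb on each side, 71.8% of the anchors held a start, against 38.6% in loops gained in wild type only. Gene 3′ ends showed no such peak, being in 10.5% of the anchors and in 12.1% and 12.2% of the bins beside them.

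Span and score differ between the classes of gained loops, so the shares were also set side by side within ranges of both. Under 100 kb the share of anchors with a start was 45.9% (41.0 to 50.9) in loops gained in both lines and 26.7% (24.3 to 29.2) in loops gained in wild type only. At 500 kb and over it was 27.1% (19.9 to 35.8) and 13.8% (12.1 to 15.8). In the lower 50% of scores it was 38.0% (33.9 to 42.2) and 16.6% (15.6 to 17.7), and above the 90th percentile 44.6% (38.2 to 51.2) and 25.9% (22.7 to 29.3). The intervals of the 2 classes did not overlap in any of the 7 ranges.

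**Figure D3:**
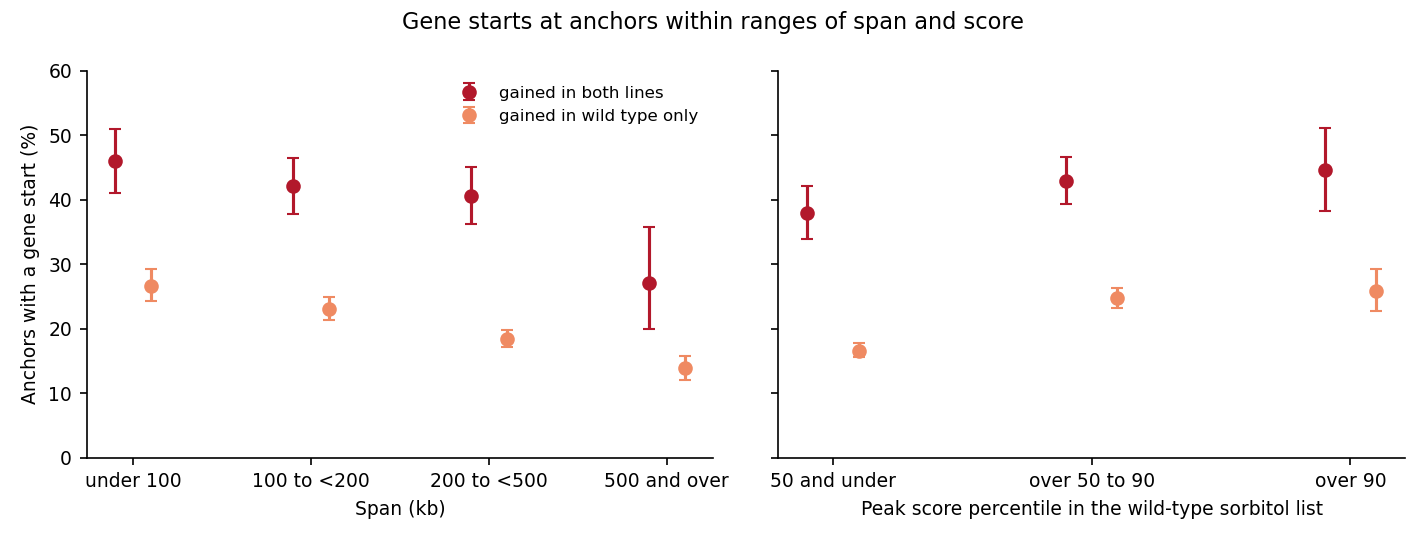
Share of anchors with a protein-coding gene start in loops gained in both lines and in loops gained in wild type only, within 4 ranges of span in kb (left) and 3 ranges of score percentile in the wild-type sorbitol list (right). Points are shares and bars Wilson 95% intervals over anchors. Loops gained in both lines lie above in each range.

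Starts at both anchors made promoter pairs. A start lay at both anchors of 145 loops (19.8%, 17.1 to 22.9), at 1 anchor of 315 (43.1%) and at neither of 271 (37.1%). In loops gained in wild type only these shares were 8.22%, 24.1% and 67.7%. More starts per anchor, 41.4% against 20.3%, also make starts at both anchors more common. Pairing beyond that was not computed. Taking the bins of either line, 316 loops (43.2%, 39.7 to 46.8) had starts at both anchors and 154 (21.1%) at neither, over a wider stretch of sequence. With starts counted in wild-type bins, 62 of the 145 loops with starts at both anchors (42.8%) used the same bins in both lists. With a start at 1 anchor it was 55 of 315 (17.5%), and with none 28 of 271 (10.3%). A start held only by the eGFP-YAP bin is not counted here. The rule also used the offset between the lines, so these shares are a description. Per anchor, a start lay in 374 of the 637 anchors with the same bin in both lists, 58.7% (54.8 to 62.5). Of the 825 anchors that differed, 28% (25 to 31.2) had a start in the wild-type bin. A start lay in the wild-type bin only in 186 of them and in the eGFP-YAP bin only in 288. It lay in both bins in 45 and in neither in 306. The 28% thus depends on which line's bin is read.

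Among the 145 promoter pairs, 10 ranked highest by the mean of the score percentiles. The first joined SEC14L5, of a family of lipid-binding proteins, and EEF2KMT, which methylates a translation elongation factor. Its anchors were chr16:4955001-4960000 and chr16:5095001-5100000, with scores of 5.32 in wild type and 7.71 in eGFP-YAP. Both lines used these bins, 4 other genes start between them, and the nearest own-line control loops were 230 and 155 kb away.

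The second joined the shared start region of WDR27 and C6orf120 at chr6:169700001-169705000 with PSMB1, a subunit of the proteasome core, and TBP, the TATA-binding protein, at chr6:170550001-170555000. It spanned 850 kb and scored 6.72 and 6.39. Here control loops were near, at 15 kb for wild type and at 20 kb for eGFP-YAP, just beyond the limit.

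The next in rank joined CCDC112 at chr5:115295001-115300000 and FEM1C, a substrate receptor of a ubiquitin ligase, at chr5:115540001-115545000, with scores of 5.04 and 6.31 and no other gene start between them. ZNRF3 at chr22:28880001-28885000 and KREMEN1 at chr22:29070001-29075000, both inhibitors of Wnt signalling at the cell surface, were joined over 190 kb with scores of 4.56 and 7.32. On the X chromosome, GTPBP6, a mitochondrial GTPase, and SLC25A6, an ADP/ATP carrier of the mitochondrial membrane, were joined over 1075 kb with scores of 4.47 and 7.09. Their anchors, chrX:315001-320000 and chrX:1390001-1395000, lie in the pseudoautosomal region, where reads cannot be assigned to X or Y. TSPAN17, a tetraspanin, and FGFR4, a fibroblast growth factor receptor, were joined between chr5:176645001-176650000 and chr5:177085001-177090000 with scores of 4.45 and 6.88.

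Ranks 7 to 10 held pairs of other roles. CFAP410, a protein of cilia, and SUMO3, a small protein modifier, scored 3.75 and 9.42 across 480 kb in which 20 other genes start. PLCD1, a phospholipase C, and ACVR2B, an activin receptor, scored 4.47 and 4.98 over 425 kb. NCAPG, a subunit of condensin, and DCAF16, which share a start region, were joined to LCORL over 210 kb with 6.27 in wild type and 4.21 in eGFP-YAP, the only 1 of the 10 besides the PSMB1 loop with the higher score in wild type. DOP1B and CHAF1B, a subunit of a histone chaperone, scored 4.29 and 4.68 over 230 kb. All 10 loops lay at the same bins in both lines or 5 kb away.

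The directions of the paired genes were mixed. In 96 pairs each anchor had starts on 1 strand only, and of these 50 (52.1%, 42.2 to 61.8) were transcribed in the same direction, 21 towards each other and 25 away. Over all 495 start anchors with starts on 1 strand, transcription ran into the loop in 235, 47.5% (43.1 to 51.9), and out of it in 260. The median number of other starts between the anchors was 2, and 134 loops (18.3%) had none. Only 21 loops lay inside a gene, the longest of 245 kb in ZBTB7C, and 1 joined the start of a gene, FAM118B, to its own 3′ end.

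Loops with a start at 1 anchor had partner anchors both inside and outside protein-coding genes. The partner anchor overlapped a protein-coding gene in 234 of 315 (74.3%, 69.2 to 78.8) and held the start of a lncRNA gene in 33 (10.5%). Over all anchors of the set without a start, 598 of 857 overlapped a protein-coding gene. In loops gained in wild type only it was 3862 of 6361. In 197 (62.5%) a protein-coding start lay within 5 kb of the partner bin. This share and that of lncRNA starts were not computed for other anchors without a start. Of the 5 highest ranked, 1 is not reported here, and the other 4 ran from COMMD3 to a bin within MLLT10 on chromosome 10 (785 kb, 8.56 and 7.69), from SEH1L, a nuclear pore subunit, to sequence outside protein-coding genes on chromosome 18 (565 kb, 7.11 and 7.83), from PPP1R2, an inhibitor of protein phosphatase 1, to an intron of XXYLT1 on chromosome 3 (285 kb, 8.29 and 6.85), and from PARD6G, a cell polarity protein, to an intron of ADNP2 on chromosome 18 (125 kb, 6.35 and 7.33). COMMD3 shares its start with the COMMD3-BMI1 readthrough.

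Among loops with no start, the highest mean percentile, 99.7, was on chromosome 13 between chr13:86185001-86190000 and chr13:86280001-86285000, with scores of 8.12 and 9.83. Of the sequence between its anchors, 50 kb (55.6%) is unsequenced in hg38, and 1 other of the 731 loops had 10 kb or more of such sequence. What this does to the loop was not tested. The next 4 were a loop of 95 kb ending in SMIM10L2B, the loop of 205 kb ending in STX7, a loop of 640 kb ending in RASSF4 and the loop inside ZBTB7C. In no loop of the 731 did the anchors share 10% or more of their 31-base words, in either strand, and in 11 they shared 1% or more. That comparison is within each loop. Between bins of different loops in the stretch of the X chromosome around SMIM10L2B the share reached 13.8%.

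CTCF motifs were not concentrated at the anchors to the degree seen in loops of the control lists. A motif with at most 1 mismatch lay in 265 anchors, 18.1% (16.2 to 20.2). The share was 18.4% (17.5 to 19.2) in loops gained in wild type only and 20.9% (19.9 to 21.9) in eGFP-YAP only. In loops of all 4 lists it was 45.3% and in control-only loops 32.2%. Moved by 100 kb, the anchors had 13.3% (11.6 to 15.1), and all bins of the genome 8.71%. Anchors with a start held a motif in 16.7% (13.9 to 19.9) and anchors without in 19.1% (16.6 to 21.9). Both anchors held a motif in 23 loops (3.15%, 2.11 to 4.68). With no mismatch allowed, 2.19% of the anchors (1.55 to 3.07) held a motif, against 3.43% in loops gained in wild type only.

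Of 21 loops with motifs on 1 strand at each anchor, 6 had them towards each other (28.6%, 13.8 to 50), 14 on the same strand and 1 away from each other. In loops gained in wild type only, 65 of 137 such loops (47.4%, 39.3 to 55.8) had them towards each other, and the intervals overlap. In the bins of the eGFP-YAP list 12 of 23 loops had them towards each other (52.2%, 33.0 to 70.8). The 6 include the chromosome 6 loop whose sites are printed above.

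**Figure D4:**
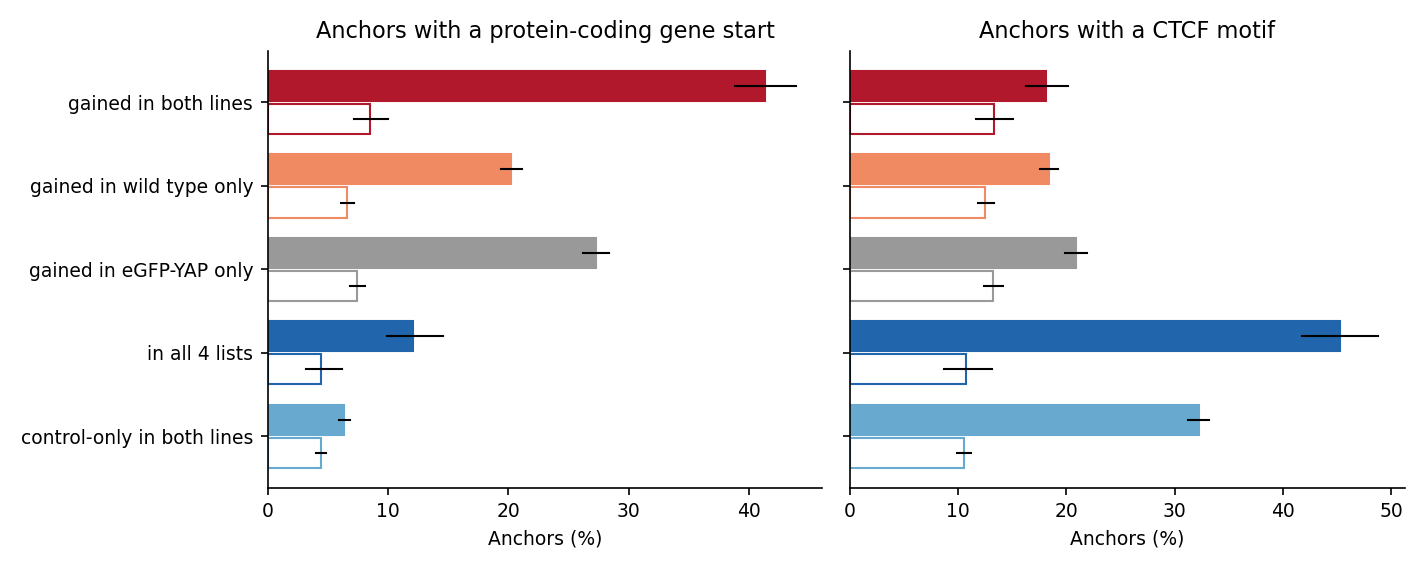
Share of anchors with a protein-coding gene start (left) and with a CTCF motif (right) in 5 classes of loops, in percent. Filled bars are the listed anchors, open bars the same anchors moved by 100 kb, and lines Wilson 95% intervals over anchors. Loops gained in both lines have the longest filled bar on the left and 18.1% on the right.

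The anchors were rich in GC and CpG. Median GC was 49.1% (48.6 to 49.5) and the median number of CpG in 5 kb was 129 (124 to 134), against 45.7% and 73 in loops gained in wild type only and 45.3% and 65 after moving by 100 kb. Anchors with a start had a median of 179 CpG (172 to 184). Their counterparts had 169 (165 to 173) in loops gained in wild type only and 177 (172 to 180) in eGFP-YAP only, with intervals that overlap. Anchors without a start had 84 (78 to 89), against 60 (59 to 61) in wild type only and 67 (66 to 69) in eGFP-YAP only. Only the anchors without a start thus held more CpG than their counterparts by intervals that do not overlap.

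In all, 693 protein-coding genes (3.47%) started at an anchor of the set, and 151 of them also at an anchor of loops gained in wild type only. Their promoters, 300 bases around the annotated start, were compared with all 19961 protein-coding promoters. GGGCGG lay in 75.9% (72.5 to 78.9) of 692 promoters at these anchors, in 67.9% (65.5 to 70.1) of the 1597 genes at anchors of loops gained in wild type only that were not at these anchors and in 52.4% over all. The YY1 motif AAGATGGCG lay in 5.06% (3.66 to 6.95) against 1.88% over all, the NRF1 motif in 3.76% against 1.49%, the ETS motif ACCGGAAGT in 2.75% against 1.27%, and the CREB motif TGACGTCA in 3.47% against 2.28%. Among genes at anchors of loops gained in wild type only, the YY1 share was 3.01% (2.27 to 3.96), NRF1 2.00%, ETS 1.88% (1.32 to 2.67) and CREB 4.01%, with intervals that overlap those of the 692 promoters for all 4 motifs. These factors are known for housekeeping promoters with CpG islands, and the median number of CpG was 27 in the 300 bases (26 to 29) against 18 over all. In the promoters of genes at anchors of loops gained in wild type only it was 25 (24 to 26).

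Other motifs were rarer or about as frequent as over all promoters. TATAAA lay in 4.62% (3.29 to 6.46) against 10.8% over all, the AP-1 motif TGANTCA in 3.47% (2.34 to 5.11) against 6.39%, the TEAD motif CATTCC in 11.7% (9.52 to 14.3) against 12.8%, and the NFAT5 motif in 3.32% (2.22 to 4.94) against 4.38%. The heat shock motif lay in 0.434% against 0.401%, the CTCF motif in 3.90% against 3.32%, and CCAAT in 37.6% against 35.9%. TATAAA and the AP-1 motif were similarly rare at anchors of loops gained in wild type only, at 5.70% (4.66 to 6.95) and 4.76% (3.82 to 5.92). The intervals of the TEAD, NFAT5, heat shock, CTCF and CCAAT shares include the share over all promoters. All motifs were searched on both strands, the CTCF motif can hold GGGCGG within it, and a match describes the letters only.

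Gene lists were read without a test against the share of all protein-coding genes at the anchors. That share was 3.47% in wild-type bins and 4.00% in eGFP-YAP bins of the same loops. For the more numerous loops gained in wild type only it was 8.76% and for those gained in eGFP-YAP only 8.71%, so each count belongs beside its own share. In the bins of either line 1047 genes (5.24%) started at an anchor. The genes counted in wild-type and in eGFP-YAP bins thus differ in part. Of 22 YAP and TEAD target genes, 0 started at an anchor in wild-type bins (0 to 14.9%), and 1, ARHGEF17, in eGFP-YAP bins. Of 27 Hippo pathway and TEAD genes there was 1, TEAD4, a DNA-binding partner of YAP, whose loop of 120 kb to TSPAN9 scored 2.51 and 2.18. Of 35 genes of osmotic stress and volume control there was also 1, MAPK14, the p38 kinase, joined to sequence within SRPK1 with scores of 2.65 and 2.26. For loops gained in wild type only there were 3 YAP and TEAD targets (13.6%), 3 Hippo pathway and TEAD genes (11.1%) and 5 osmotic genes (14.3%). For those gained in eGFP-YAP only these counts were 1 (4.55%), 2 (7.41%) and 4 (11.4%).

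Of 53 immediate-early and stress genes, 3 (5.66%) started at an anchor, and 5 (9.43%) in eGFP-YAP bins. For loops gained in wild type only there were 5 (9.43%, beside 8.76% of all genes), and for those gained in eGFP-YAP only 10 (18.9%, beside 8.71%). DDIT3, a stress-induced transcription factor, shares its anchor at chr12:57520001-57525000 with MBD6 and was joined to a bin within GLI1 (2.21 and 2.23) and to a bin within TSPAN31 and CDK4 (4.51 and 4.81). HSP90AA1, a heat shock chaperone, scored 2.74 and 3.65, and KLF10, a zinc finger repressor, 2.89 and 4.53.

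Of 39 Polycomb and cohesin genes, 6 (15.4%, 7.25 to 29.7) started at an anchor, and 5 (12.8%) in eGFP-YAP bins. For loops gained in wild type only there were 7 (17.9%, beside 8.76% of all genes), and for those gained in eGFP-YAP only 9 (23.1%, beside 8.71%). The 6 in wild-type bins were RAD21 and STAG1 of cohesin, CTCF, and PHF1, RING1 and PHC1 of Polycomb complexes. The eGFP-YAP bins added CBX7, PCGF3 and PHC2, and 9 genes started at an anchor in the bins of either line. Most of the 6 thus started at an anchor in wild-type bins only. STAG1 was joined to NCK1, an adaptor protein, over 110 kb with scores of 2.57 and 2.78, and CTCF to THAP11, a DNA-binding protein, over 280 kb with 3.14 and 2.61. RAD21 scored 4.22 and 3.83 in a loop of 120 kb to a bin within EIF3H, and PHF1 4.31 and 3.40 in a loop to the shared bin of SLC39A7, RXRB and HSD17B8.

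Of 172 splicing and RNA-binding genes there were 9 (5.23%), of 102 translation factors and tRNA synthetases 9 (8.82%, 4.71 to 15.9) and of 135 ubiquitin and proteasome genes 7 (5.19%). In eGFP-YAP bins these counts were 9 (5.23%), 13 (12.7%) and 6 (4.44%), and in the bins of either line 13, 17 and 7. For loops gained in wild type only they were 20 (11.6%), 13 (12.7%) and 10 (7.41%), beside 8.76% of all genes. HNRNPU, an RNA-binding nuclear matrix protein, was joined to DESI2 with scores of 3.44 and 4.45, at chr1:244650001-244655000 and chr1:244860001-244865000 in both lines. SNRPB, a core spliceosome protein, was joined to NOP56, of small nucleolar ribonucleoproteins (2.59 and 3.39), and DDX42, a helicase, to PSMC5, a proteasome ATPase (2.67 and 2.31). HNRNPA2B1 and the heterochromatin protein gene CBX3 share a start region, joined to sequence outside protein-coding genes 345 kb away with 6.75 and 6.48. EIF5, a translation initiation factor, was joined to CDC42BPB with 2.44 and 2.67 at the same bins in both lines.

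Of 69 replication-dependent histone genes there were 4 (5.80%), all in 1 loop of 675 kb that joined H2BC11 and H2AC11 at chr6:27130001-27135000 to H2BC13 and H2AC13 at chr6:27805001-27810000, with scores of 3.17 and 3.32. The anchors of the matched eGFP-YAP loop lay 10 and 5 kb from these bins, and in eGFP-YAP bins 2 genes of the list (2.90%) started at an anchor. For loops gained in wild type only there were 5 histone genes (7.25%), and for those gained in eGFP-YAP only 12 (17.4%). Of 85 ribosomal protein genes there were 2 (2.35%), RPS7 and RPL6, in wild-type bins and 7 (8.24%) in eGFP-YAP bins, which puts the list below the share of all genes in the former and above it in the latter. For loops gained in wild type only there were 14 (16.5%, beside 8.76%), and for those gained in eGFP-YAP only 18 (21.2%, beside 8.71%). Of 145 developmental homeobox and patterning genes there was 1 (0.690%, 0.122 to 3.8), NKX2-5, and 3 (2.07%) in eGFP-YAP bins. For loops gained in wild type only there were 26 (17.9%, beside 8.76%), but for loops gained in eGFP-YAP only 9 (6.21%, beside 8.71%). The list was thus above the share of all genes in the former class and below it in the latter. Of 568 zinc finger genes there were 11 (1.94%), among them ZFP91 with scores of 7.58 and 6.59. Of 416 olfactory receptor genes there were 0 (0 to 0.915%), and of 53 clustered protocadherin genes 0 in wild-type bins and 1, PCDHA9, in eGFP-YAP bins.

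Some anchors were shared. Merged within 10 kb, the anchors formed 1288 nodes, of which 151 carried more than 1 loop and 20 at least 3. A gene start lay in 66.9% (59.0 to 73.9) of the 151 and in 39.6% (36.8 to 42.5) of the 1137 nodes with 1 loop, and a node with more loops is also wider, with a median of 10 kb against 5 kb. The loops formed 568 connected groups, and 276 loops (37.8%) were in groups of more than 1. This share was higher in the larger classes, at 54.2% in wild type only, 52.8% in eGFP-YAP only and 53.9% in control-only loops. In the smaller class of loops of all 4 lists it was 11.8%. Sharing of anchors was thus not particular to this set. In 9 cases 3 nodes were joined pairwise.

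The node with most loops, 5, was at chr1:227725001-227740000 and holds the starts of SNAP47, of the SNAP25 family of membrane fusion proteins, and JMJD4, an oxygenase. It reached positions 60 to 450 kb away, within WNT9A, C1orf35 and IBA57 and at 2 places outside protein-coding genes, with wild-type scores of 2.15 to 3.20 and eGFP-YAP scores of 2.55 to 4.83. With 3 further loops, among them those to TRIM11, it made the largest connected group, of 8 loops over 685 kb.

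A node with 4 loops is not reported here. Of the nodes with 3 loops, which tie in number, 1 on the X chromosome holds the start of SLC25A6 and was joined to GTPBP6, ASMTL and AKAP17A, the last an RNA-binding anchoring protein, and both latter loops scored at least 3.00 in wild type and 4.48 in eGFP-YAP. The group of 7 loops on chromosome 10 covered 1200 kb from DPYSL4 to PAOX, a polyamine oxidase, and ECHS1, an enzyme of fatty acid oxidation, with eGFP-YAP scores of 3.87 to 7.86.

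The longest loop of the set, of 1435 kb, ran on chromosome 1 from a bin within PTPRU, a receptor phosphatase, to a bin within MATN1, a cartilage matrix protein, and scored 3.66 and 6.77 at the same bins. The loop of 1095 kb on chromosome 4 scored 3.54 and 6.44 and had no protein-coding gene at either anchor.

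Anchors of control loops lay close to many anchors. Within 10 kb of an anchor of either control list were 859 of the 1462 (58.8%, 56.2 to 61.3), against 64.7% (63.6 to 65.7) in loops gained in wild type only. Both anchors were near control anchors in 259 loops, 1 in 341 and neither in 131. Those near a control anchor held a CTCF motif in 21.1% (18.5 to 23.9) and the rest in 13.9% (11.4 to 16.9), while gene starts were in 40.2% and 43.1%. The lists chose the loops, so these shares are a description.

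By chromosome, density ran from 0.0833 loops per Mb on X to 0.819 on chromosome 19, with 0.241 over all. Chromosome 19 held 48 of the loops, 24.1% (18.7 to 30.5) of the 199 gained there in wild type, and X 13, 20% (12.1 to 31.3) of 65. This share was highest on chromosome 21, at 27.1% (17.4 to 39.6). Across the 23 chromosomes, loops per Mb and protein-coding genes per Mb had a Spearman rho of 0.714, with list and depth shared by all. It was not computed for other gained loops.

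**Figure D5:**
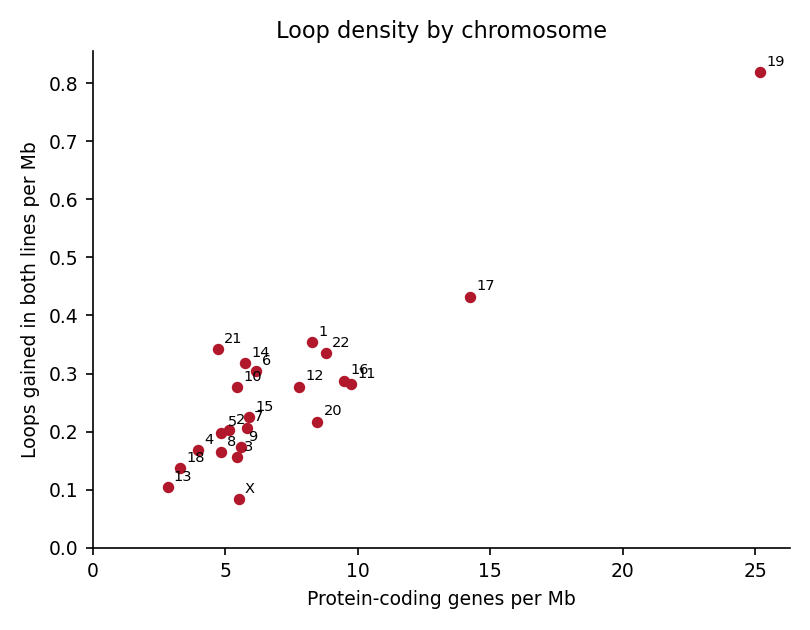
Loops gained in both lines per Mb against protein-coding genes per Mb, 1 point for each of 23 chromosomes. Chromosome 19 lies at the upper right with 0.819 loops per Mb and X lowest with 0.0833.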

How the data were processed

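The deposited files are 4 loop lists, each pooled by the authors over the replicates of a condition. Per the list names, the loops were called at 5 kb with SIP. Each loop has a score deposited by the authors and a probability of enrichment, a fraction deposited by the authors that was never below 0.900. Genome build hg38 (GRCh38) is named in the submitters' processing notes. Caller version and settings, aligner and map normalization are not given in the sources used here. The depth is unknown, and only the number of loops in each list can be given.

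Loops of different lists were matched when both anchors lay within 10 kb. Anchors were annotated with GENCODE release 44 on hg38, taking 1 start per gene. CTCF motifs on either strand were counted when no more than 1 base differed. Shares have Wilson 95% intervals, which cover counting error over anchors, loops or promoters only. Anchors can be shared and are not replicates, and no test between lists was possible. Python 3.11.15, numpy 2.4.6, pandas 2.3.3, scipy 1.17.1 and pysam 0.24.0 were used, with matplotlib 3.10.9 for the plots. The printed promoters come from RefSeq (GRCh38.p14). On simulated lists 600 of 600 planted loops were recovered, and 200 of 200 planted motifs in simulated sequence.

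The loops named were the 10 with the highest mean score percentile among those with starts at both anchors, the 5 highest with a start at 1 anchor and with none, the 4 longest, and those of the 3 nodes and 3 connected groups with most loops, besides genes of fixed lists at an anchor. Some of the loops this rule names are not reported here. FAM118B, the chromosome 3 CTCF pair, the CCAAT and TATAAA motifs and the comparison of 31-base words were chosen after their values were seen. Members and lists were chosen with earlier results of these data known. The shares within ranges of span and score, the comparison with loops gained in eGFP-YAP only and the bins of either line were added after seeing the data. Other alternatives changed the matching distance, the score limit, the merging of neighbouring loops, the list that gives the coordinates, the anchor width, the annotation and the motif mismatches. Columns with per-sample values that were left out numbered 0.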

Additional observations from a re-analysis of the deposited data

How the results depend on the processing

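Of 55 values under alternatives, 41 stayed within the interval of the reported value or within 1.5 times the count. With a matching distance of 0 kb, 210 loops qualified, 54.3% of their anchors held a gene start, 37.6% of the loops had starts at both anchors and 23.3% of the anchors held a CTCF motif. In the upper 50% of each sorbitol list by score, 329 loops qualified, with a median span of 220 kb. With the coordinates of the eGFP-YAP list, 48.4% of the anchors held a start and 29.5% of the loops had starts at both. Widening the anchors by 5 kb gave 71.8% with a start and 41.7% with a motif. Genes of all types gave 50.2% with a start, and all transcript starts of protein-coding genes 59.2%. Allowing no mismatch left a motif in 2.19% of the anchors (1.55 to 3.07), against 3.43% in loops gained in wild type only. It left 2 of 3 motif pairs (66.7%) towards each other. The shares with a start ran from 40.5% to 71.8% over 12 alternatives, each above the share in the comparison loops. The cause of these shifts was not tested, apart from the wider window, the added starts and the stricter motif, which change what is counted. No paired analysis was possible because each list pools its replicates, and for the same reason no replicate could be left out. The orientation of CTCF pairs rests on few loops, and the unknown depth limits every absence from a list.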
